A study of Mus musculus with 2 samples.

Results

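Among the nuclei of the dopamine transporter (DAT) lineage, 174 of 12065 carried 2 or more transcripts of the genes that make and package the inhibitory transmitter GABA. They were chosen by unique molecular identifiers (UMIs, each standing for 1 captured RNA molecule): from the nuclei with at least 500 detected features, those with at least 2 UMIs of Gad1, Gad2 and Slc32a1 together and no UMI of Slc17a6 were taken, and they are called GABA-gene nuclei here. The male library held 112 of them among 6556 nuclei (1.71%, exact 95% binomial interval 1.41 to 2.05) and the female library 62 among 5509 (1.13%, 0.864 to 1.44). Intervals here cover counting error only.

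All nuclei came from adult mice of 1 genotype, Dat-IRES-Cre with CAG-Sun1/sfGFP, in which Cre made from the DAT gene (Slc6a3) switches on a green fluorescent protein in the nuclear envelope. GFP+ singlet nuclei were sorted from a block of ventral midbrain and profiled with droplet 3' single-nucleus RNA-seq, 1 library from pooled males and 1 from pooled females, so that sex cannot be told apart from library and no difference between the sexes was tested. The libraries held 21609454 and 19843000 UMIs in the nuclei kept. Because the recombined reporter persists, GFP marks a nucleus whose cell has used the DAT promoter at some time, whether or not it did so at the time of sampling.

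Gad1 and Gad2 encode the glutamate decarboxylases that make GABA, and Slc32a1 encodes the carrier (VGAT) that loads it into synaptic vesicles. Dopamine is made by the enzymes encoded by Th and Ddc, loaded into vesicles by Slc18a2 (VMAT2) and taken back up by Slc6a3, and some midbrain dopamine neurons also release glutamate, which Slc17a6 (VGLUT2) packages, or GABA. Inhibitory neurons of the ventral midbrain lie next to the dopamine neurons.

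The GABA label rested mainly on Gad2. Gad2 UMIs were present in 107 of the 112 male and 61 of the 62 female GABA-gene nuclei, and in 79 (70.5%) and 54 (87.1%) it was the only gene of the 3 with a UMI. Gad1 was seen in 25 male (22.3%) and 4 female (6.45%) nuclei, and Slc32a1 in 8 (7.14%) and 4 (6.45%). No nucleus held all 3 genes, and 28 male (25%) and 7 female (11.3%) nuclei held 2 of them. These values chose the nuclei and are given as a description.

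Most members stood close to the threshold. Leaving aside nuclei with Slc17a6, exactly 2 GABA-gene UMIs were counted in 75 male and 38 female nuclei and 3 or more in 37 and 24. Just outside the threshold, 163 male and 97 female nuclei held 1 UMI, and 6161 and 5221 held none. A further 6 male and 4 female nuclei had at least 2 GABA-gene UMIs but also Slc17a6, and were left out by the rule. As a measure of background, Gad2 had a UMI in 11 of 631 male (1.74%) and 15 of 761 female (1.97%) nuclei that carried at least 2 UMIs of Aldh1a1 and 1 of Sox6, genes of ventral dopamine neurons, at median depths of 4081 and 4616 UMIs. At least 2 UMIs of the 3 genes together were in 3 (0.475%) and 4 (0.526%) of the same nuclei, which were deeper than the GABA-gene nuclei. The rule's threshold was thus also reached in nuclei with a dopaminergic profile, at a lower share than the 1.71% and 1.13% of all nuclei.

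**Figure D1:**
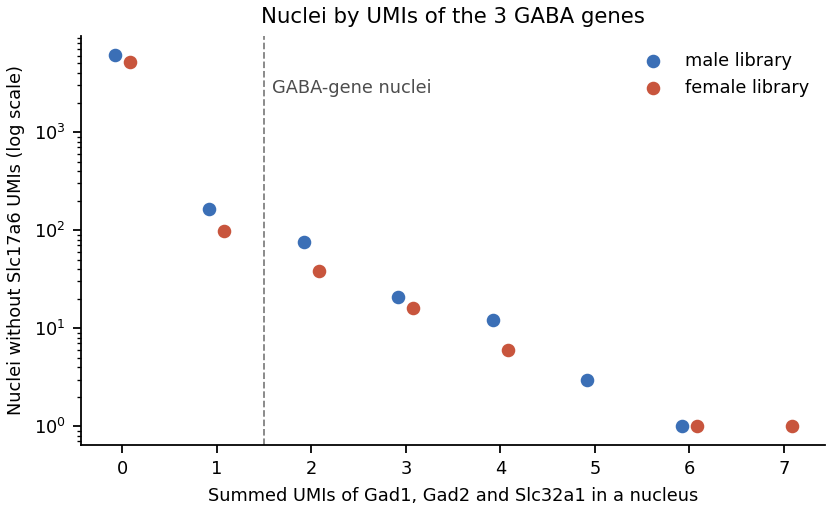
Number of nuclei without Slc17a6 (log axis) by summed UMIs of Gad1, Gad2 and Slc32a1 in the male and the female library. Counts fell steeply from 0 UMIs, and the members with 2 UMIs outnumbered those with 3 or more in both libraries.

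Each GABA-gene nucleus was set beside the 3 other nuclei of its library nearest to it in total UMIs (336 male and 186 female matched nuclei), which gave equal median depths in both classes (3127 UMIs for males, 2906 for females). UMIs were summed per library and class and tested with edgeR's quasi-likelihood method, with the library as a block and Benjamini-Hochberg adjustment over all genes tested. Levels are given as CPM, the UMIs of a gene in each 1000000 UMIs of the summed nuclei. Of 7510 genes tested, 302 were higher (4.02%) and 248 lower (3.30%) in GABA-gene nuclei, and 301 of the 302 and all 248 had the same direction in each library. With 1 residual degree of freedom the spread of each gene was taken from the trend over genes. DESeq2 on the same sums called 83 higher and 38 lower genes.

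The 12 named genes that were furthest above the matched nuclei included receptors, an enzyme of cyclic nucleotides, extracellular proteins and transcription factors. Megf11 (chr9:64385626-64709205, mm10), which encodes a transmembrane protein with EGF-like repeats, reached 377 CPM in male and 453 in female GABA-gene nuclei, against 34.6 and 10.3 in matched nuclei. The log2 fold change was 3.98 ± 0.20 (SE; edgeR adjusted p = 1.7e-84), so that both libraries showed a level more than 10 times that of their matched nuclei. Htr2c (chrX:146962513-147197277), the serotonin 2C receptor, stood at 356 and 371 CPM against 62.3 and 45.1 (log2 fold change 2.68 ± 0.18, edgeR adjusted p = 6.7e-49). Pde11a (chr2:75989141-76338774), a phosphodiesterase that breaks down cAMP and cGMP, stood at 374 and 534 against 73.6 and 67.0 (2.59 ± 0.16, edgeR adjusted p = 1.1e-55). For these 3 genes both GABA-gene values lay above both matched values, without overlap.

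The extracellular proteins among the 12 named genes were Fras1, a basement membrane protein, at 231 and 298 CPM against 45.1 and 29.7 (log2 fold change 2.69), and Sulf1, a sulfatase that trims heparan sulfate, at 128 and 224 against 24.0 and 24.5 (2.73). The collagen-binding integrin subunit Itga11 stood at 53.8 and 61.9 against 9.76 and 7.74 (2.61). Ptprk, a receptor tyrosine phosphatase, stood at 242 and 306 CPM against 37.6 and 50.3 (2.63), and the unconventional myosin Myo16 at 233 and 224 against 42.8 and 25.8 (2.64). The amino acid carrier family member Slc7a14 had 25 and 17 UMIs against 17 and 2 (2.69), and its difference in log2 of (CPM + 1) was 2.05 for males and 4.22 for females. Among transcription factors, the zinc-finger homeobox gene Zeb2 stood at 173 and 236 CPM against 36.1 and 27.1 (2.57), and the helix-loop-helix factor Ebf2 at 126 and 124 against 21.0 and 19.3 (2.58). In matched male nuclei 21 of the 48 Zeb2 UMIs came from 1 nucleus. Fras1, Sulf1, Ptprk, Myo16, Zeb2 and Ebf2, like Megf11, Htr2c and Pde11a, were also called by DESeq2 and by edgeR without the block. Itga11 and Slc7a14 passed the filter on low counts only through the GABA-gene nuclei, so their values are given as a description.

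The muscle gene Ttn (titin) met the same rule, but rested on few nuclei and passed the filter on low counts only through the GABA-gene nuclei, so its counts are given as a description. In the male library 17 of its 29 UMIs, and in the female library 21 of 26, lay in 1 nucleus each. The other GABA-gene nuclei held 12 and 5 Ttn UMIs, against 8 and 8 in the matched nuclei.

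**Figure D2:**
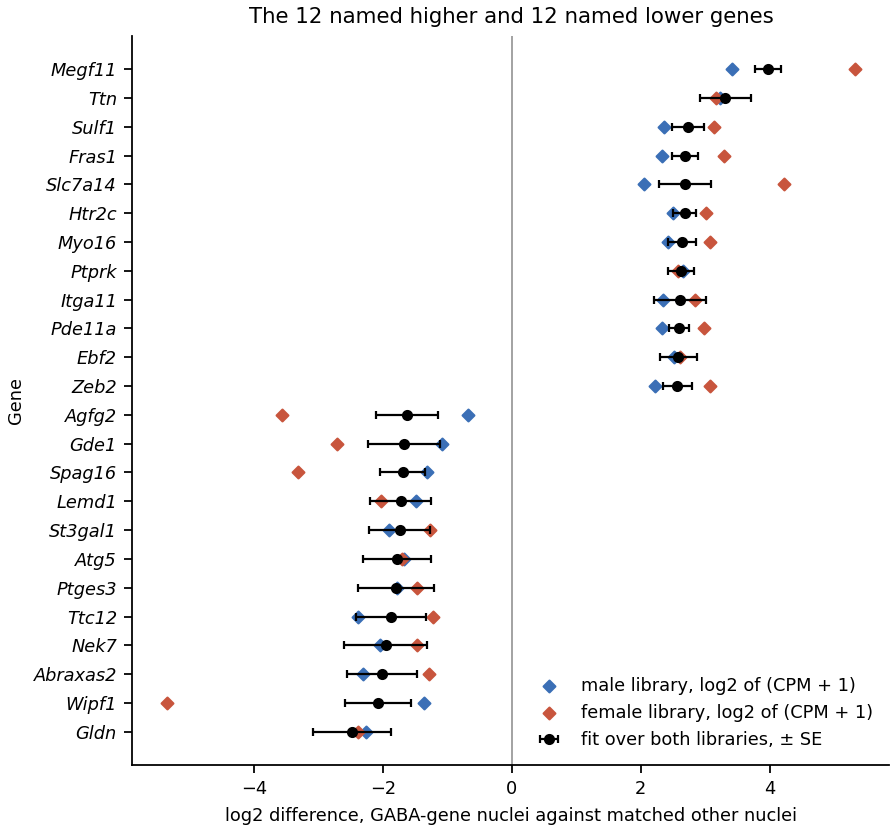
Log2 fold change (± SE) of GABA-gene nuclei against matched nuclei for the 12 named genes that were higher and the 12 that were lower, with each library's own difference in log2 of (CPM + 1) as a diamond. The higher genes ranged from 2.57 to 3.98, and each library lay on the same side of 0 as the fitted value.

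Single GABA-gene nuclei often held UMIs of several of the higher genes. At least 3 of the 12 had a UMI in 86 of 112 male (76.8%) and 53 of 62 female (85.5%) GABA-gene nuclei, against 8.63% and 8.06% of matched nuclei. The median number of the 12 genes with a UMI was 5 and 6 in GABA-gene nuclei and 1 and 0 in matched nuclei. Since the 12 genes were chosen on these nuclei, this is a description. Whether they shared nuclei more often than the share of nuclei with each gene would give was not tested.

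The level of Megf11 was also higher in nuclei with any GABA-gene UMI than in those with none. It stood at 16.6 CPM in male nuclei with no GABA-gene UMI, 237 with 1, 326 with 2 and 475 with 3 or more. The female values were 11.8, 255, 487 and 411, so that the order of the top 2 classes differed between the libraries. Sox6, a transcription factor of ventral dopamine neurons, went the other way, at 364, 214, 177 and 98.9 CPM in males and 413, 249, 177 and 163 CPM in females. Slc6a3 stood at 536, 299.5, 265 and 244 CPM in males and 690, 418, 346 and 342 CPM in females. Nuclei with a single GABA-gene UMI, which the rule left out, thus lay between the members and the nuclei with none for all 3 genes. For Th the female values were 453, 326, 198 and 334 CPM, so that the class with 1 UMI stood below that with 3 or more.

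**Figure D3:**
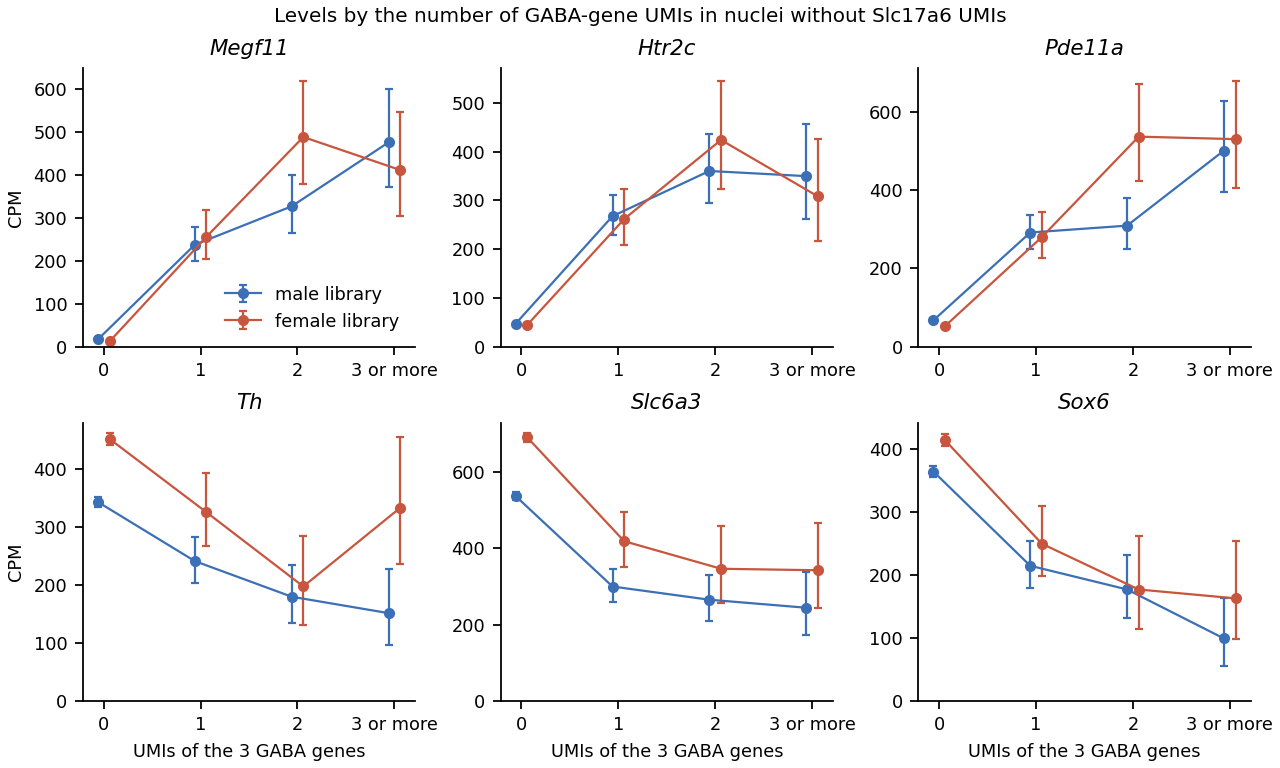
Level (CPM, linear axis from 0) of 6 genes in nuclei without Slc17a6 that held 0, 1, 2 and 3 or more GABA-gene UMIs, a line for each library, with bars giving exact 95% Poisson intervals. Megf11, Htr2c and Pde11a were lowest in nuclei with 0 UMIs, and Th, Slc6a3 and Sox6 were highest there.

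Genes that were lower had fewer UMIs behind them. The 12 named by the same rule had log2 fold changes from -2.48 to -1.63. Gldn (gliomedin) had 3 and 1 UMIs in male and female GABA-gene nuclei against 48 and 19 in matched nuclei (-2.48). Wipf1, which binds the actin regulator WASP, had 7 and 0 against 56 and 31 (-2.08). The axoneme gene Spag16 had 15 and 1 UMIs against 114 and 37 (-1.70), and the autophagy gene Atg5 had a log2 fold change of -1.78. Agfg2 had 8 and 1 UMIs against 39 and 44, and Gde1 had 5 and 1 against 33 and 24, so that these genes, like Wipf1 and Spag16, stood further below the matched nuclei in the female library. The others were Abraxas2, Nek7, Ttc12, Ptges3, St3gal1 and Lemd1. All but Spag16 and Agfg2 of the 12 passed the filter on low counts only through the matched nuclei. The values of those genes are thus given as a description. DESeq2 called 0 of these 12, and edgeR without the block called 2, Gldn and St3gal1. Lix1, which was chosen after its values were seen, was more abundant, at 244 and 259 CPM against 679 and 641 (-1.43 ± 0.14).

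Transcripts for making, storing and taking up dopamine were lower in GABA-gene nuclei, where their UMIs were still counted. Of the 10 genes listed for dopamine synthesis, storage, reuptake and breakdown, 9 were tested, 6 were lower and 0 higher, with a median log2 fold change of -0.81 against 0.004 over all genes tested. The background share of lower genes was 3.30%. Gch1, counted among the 6, passed the filter on low counts only through the matched nuclei, so its call is a description.

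Th stood at 170 CPM in male and 259 in female GABA-gene nuclei, against 332 and 404 in matched nuclei (log2 fold change -0.83 ± 0.15, edgeR adjusted p = 1.2e-06). Slc6a3, the gene from which Cre is made in these mice, stood at 258 and 344 against 529 and 704 (-1.05 ± 0.13, edgeR adjusted p = 5.4e-13). Ddc stood at 534 and 607 against 1043 and 897 (-0.81 ± 0.12, edgeR adjusted p = 7.8e-10). In each library these 3 genes were lower in the GABA-gene nuclei, and none was near 0. Slc18a2 stood at 260 and 723 CPM against 443 and 1044 (-0.65 ± 0.12, edgeR adjusted p = 8.0e-06), with the female library above the male in both classes. Aldh1a1, an aldehyde dehydrogenase of ventral dopamine neurons, stood at 71.7 and 81.2 against 173 and 217 (-1.35 ± 0.21, edgeR adjusted p = 6.3e-09). Gch1, which makes the cofactor of tyrosine hydroxylase, stood at 4.48 and 15.5 against 30.0 and 34.8 (-1.90). Its UMIs numbered 2 and 4 in male and female GABA-gene nuclei against 40 and 27 in matched nuclei. Gch1 passed the filter on low counts only through the matched nuclei, so its values are given as a description.

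Of the other genes in this list, Maoa, which breaks dopamine down (-0.52), and the aldehyde dehydrogenase Aldh2 (0.59) were not called. DESeq2 called 2 of the 6 lower genes, Ddc and Slc6a3. Its adjusted p was 0.17 for Th, 0.089 for Slc18a2 and 0.053 for Aldh1a1. Without the block, edgeR called 4 and lost Slc18a2 and Gch1. With at least 3 GABA-gene UMIs, 5 of the 6 could be tested and Ddc, Slc6a3 and Aldh1a1 were called. With UMIs of at least 2 GABA genes, 5 could be tested and Th, Ddc, Slc6a3 and Slc18a2 were called.

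**Figure D4:**
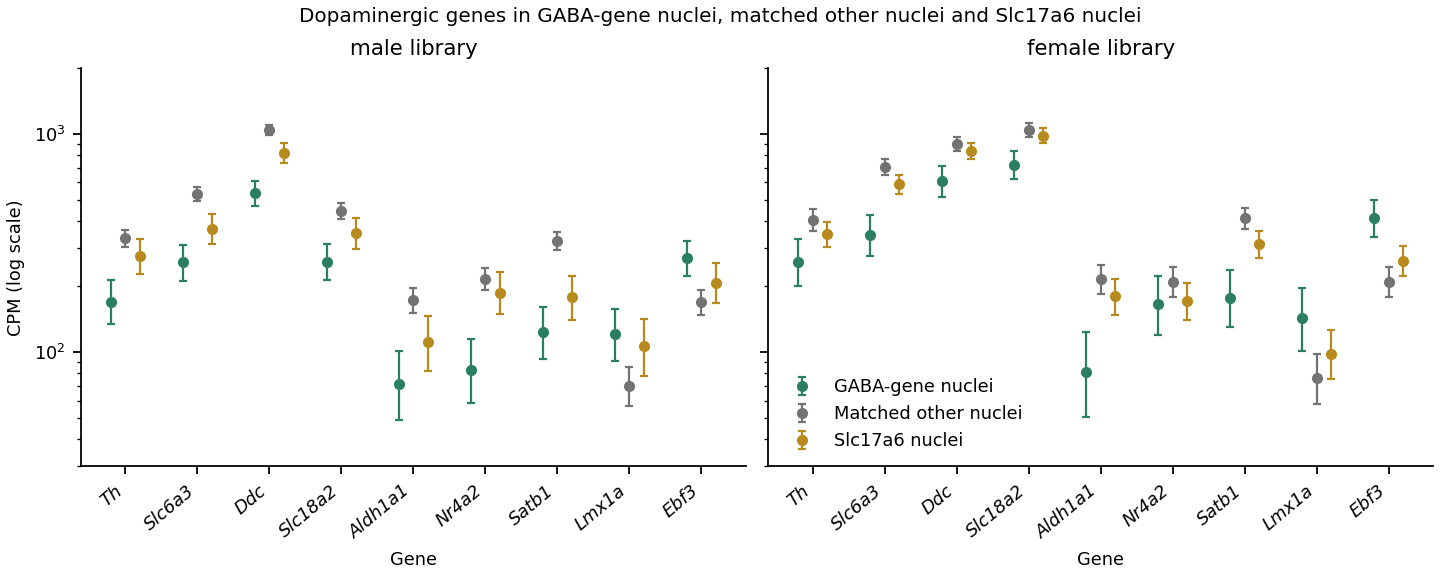
Levels (CPM, log axis) of dopaminergic genes in GABA-gene nuclei, matched nuclei and nuclei with Slc17a6, with exact 95% Poisson intervals. In both libraries GABA-gene nuclei were lowest for Th, Slc6a3, Ddc, Slc18a2 and Aldh1a1 and highest for Lmx1a and Ebf3.

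Counted nucleus by nucleus, Th had a UMI in 39.3% of male and 43.5% of female GABA-gene nuclei, against 67.3% and 79.6% of matched nuclei. Slc6a3 had one in 44.6% and 50%, against 72.9% and 83.3%, and Ddc in 67.0% and 67.7%, against 91.4% and 88.7%. For Slc18a2 the shares were 50% and 82.3%, against 73.8% and 87.6%. All 4 genes had a UMI in 21.4% and 27.4% of GABA-gene nuclei, against 40.2% and 55.4%, and the median sum of their UMIs was 2 and 4, against 7.5 and 9. None of the 4 had a UMI in 16 of 112 male (14.3%) and 3 of 62 female (4.84%) GABA-gene nuclei, against 6 of 336 (1.79%) and 0 of 186 matched nuclei, where a count of 0 allows a share of up to 1.61% (3 counts of the total). Some GABA-gene nuclei thus had no UMI of the 4 genes and others had UMIs of all 4.

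How much of the remaining signal was free RNA captured in the droplets could not be measured, since no class of nuclei examined in these libraries lacked Th. Nuclei rich in oligodendrocyte genes gave no such measure, since the study judged nuclei of this kind likely to be doublets with dopamine neurons. In nuclei with at least 10 UMIs of oligodendrocyte genes (37 male, median depth 5151 UMIs, and 17 female, median depth 4241), Th had a UMI in 62.2% and 52.9%, at 252 and 205 CPM. In the same nuclei Slc6a3 had a UMI in 73.0% and 58.8%, Ddc in 83.8% and 76.5% and Slc18a2 in 70.3% and 76.5%. The shares in GABA-gene nuclei lay below these at their lower median depth, except that of Slc18a2 in the female library (82.3%). With no measure of free RNA, none of the shares of these 4 genes is read here as expression in the nucleus itself.

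GABA-gene nuclei without any UMI of Th or Slc6a3 made up 49 of the male (43.8%) and 22 of the female ones (35.5%), against 10.7% and 5.38% of matched nuclei. They were shallower than the other GABA-gene nuclei, with median depths of 2427 against 4583 UMIs and 2106.5 against 3791. Megf11 stood at 632 CPM in male nuclei without Th and Slc6a3 and 264 in those with either, and at 894 and 352 in the female library. Pde11a stood at 596 against 277 and at 1102 against 404, and Htr2c at 551 against 271 and at 727 against 290. These 3 genes were thus higher, in both libraries, in the nuclei without Th and Slc6a3. Sox6 went the other way, at 29.4 against 203 and at 20.8 against 204, as did Lix1, at 58.8 against 326 and at 20.8 against 314. The female values without Th and Slc6a3 rested on 1 UMI for each of Sox6 and Lix1. Ddc was also lower without Th and Slc6a3, at 375 against 603 and at 312 against 675, while Slc18a2 was lower in the male library (147 against 310) and higher in the female (977 against 665). The split takes nuclei by low counts of 2 genes, so it goes with depth, and no test was made.

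**Figure D5:**
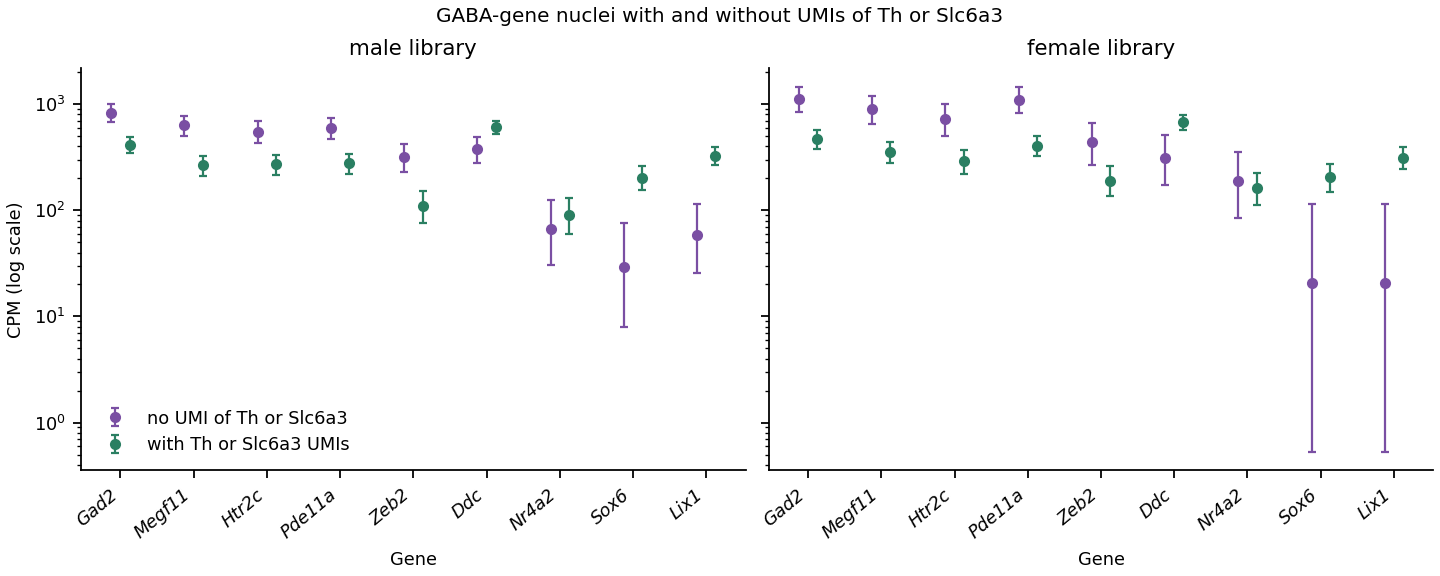
Levels (CPM, log axis) in GABA-gene nuclei without and with a UMI of Th or Slc6a3, per library, with exact 95% Poisson intervals. Megf11 was higher and Sox6 lower in the nuclei without Th and Slc6a3 in both libraries.

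The transcription factors of dopaminergic identity moved in both directions. Of 12 listed, 10 were tested, 2 were higher and 3 lower, with a median log2 fold change of -0.31. Over all genes tested, 4.02% were higher and 3.30% lower. Satb1, a chromatin organizer, stood at 123 and 178 CPM against 324 and 411 (-1.33 ± 0.16, edgeR adjusted p = 2.7e-14). Nr4a2 (Nurr1), which maintains Th and Slc6a3 expression in dopamine neurons, stood at 83.0 and 166 against 217 and 210 (-0.92 ± 0.18, edgeR adjusted p = 1.8e-05), so that the difference was mainly in the male library.

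Lmx1a, a homeobox factor that specifies midbrain dopamine neurons, was higher, at 121 and 143 CPM against 69.9 and 76.1 (0.82 ± 0.22, edgeR adjusted p = 0.0033). Ebf3, of the same family as Ebf2, stood at 269 and 410 against 169 and 210 (0.79 ± 0.15, edgeR adjusted p = 3.1e-06). In the GABA-gene nuclei with UMIs of at least 2 of the GABA genes the direction of Ebf3 turned (-0.91, edgeR adjusted p = 0.17), and Lmx1a was too rare there to be tested. The other tested factors were not called: Pitx3 had a log2 fold change of -0.99, En1 of -0.31, En2 of 0.69, Lmx1b of -0.32 and Pbx3 of 0.24. DESeq2 called 2 of the 3 lower factors, Satb1 among them, and neither of those that were higher. The DESeq2 adjusted p of Nr4a2 was 0.61.

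Of 12 genes listed for receptors and signalling of dopamine neurons, all were tested, 6 were lower and 1 was higher (median -0.60), beside 3.30% lower and 4.02% higher of all genes tested. Slc10a4, a vesicle protein of monoamine neurons, stood at 22.4 and 30.9 CPM against 56.3 and 96.7 (-1.49, edgeR adjusted p = 2.7e-04), and Gfra1, a receptor subunit for GDNF, at 164 and 205 against 330 and 393 (-1.0, edgeR adjusted p = 6.3e-09). Kcnj6, the potassium channel GIRK2, stood at 581 and 681 against 1079 and 1198 (-0.88, edgeR adjusted p = 6.5e-12), and the dopamine autoreceptor Drd2 at 137 and 251 against 302 and 316 (-0.78, edgeR adjusted p = 2.0e-05). The other lower genes were Ret, the signalling partner of Gfra1 (-0.68), and Dlk1, a Notch-related protein (-0.77). The higher gene was the neuregulin receptor Erbb4, at 4415 and 5667 against 3782 and 4092 (0.33, edgeR adjusted p = 0.041). This call was lost without the block, with no filter on low counts and with at least 3 GABA-gene UMIs, and the direction turned with UMIs of at least 2 GABA genes (-0.18). Of these 7 genes DESeq2 called Gfra1 and Kcnj6.

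Of 17 subtype genes of dopamine neurons, 10 were tested, 4 were lower and 3 higher (median -0.77), beside 3.30% and 4.02% of all genes tested. Sox6 stood at 150 and 170 CPM against 381 and 423 (-1.35 ± 0.16, edgeR adjusted p = 1.3e-15), with a UMI in 24.1% and 25.8% of GABA-gene nuclei against 55.4% and 55.4% of matched nuclei. Aldh1a1, also in this list, is given above, and Ndnf (-0.88) and the neurokinin receptor Tacr3 (-0.76) were the other lower genes. The Tacr3 call was lost with at least 3 GABA-gene UMIs, and its direction turned with UMIs of at least 2 GABA genes (0.23). Vcan, a matrix proteoglycan, stood at 128 and 85.1 against 44.3 and 60.6 (1.11, edgeR adjusted p = 1.0e-04), and the receptor kinase Alk at 240 and 259 against 153 and 165 (0.63, edgeR adjusted p = 0.0018). Tmem163, a zinc transporter, had a log2 fold change of 1.03 (edgeR adjusted p = 0.041), a call lost under most other settings, among them 1 matched nucleus per member, unmatched nuclei and no filter on low counts. Calb1, the calcium-binding protein calbindin of dorsal dopamine neurons, was not called (-0.08, edgeR adjusted p = 0.97). Of the genes called in this list, DESeq2 called Sox6 alone.

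Beyond the rule's own genes, few genes of GABA handling could be tested. Of 9 genes listed, 3 were rule genes and left out of the tests, 3 others were tested and 0 passed. The tested genes included the uptake carrier Slc6a11 (log2 fold change 0.21) and Abat, which breaks GABA down (0.02).

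Crhbp, the binding protein for corticotropin-releasing hormone and a marker given for these nuclei, had 8 UMIs in 6 male GABA-gene nuclei (5.36%) and 7 in 6 female ones (9.68%), against 1 and 0 UMIs in matched nuclei. Over both libraries the level was 44.9 times that of matched nuclei (exact 95% counting interval 6.90 to 1889), a ratio that rested on 1 matched UMI. Among nuclei without Slc17a6, those with no GABA-gene UMI held 28 male and 18 female Crhbp UMIs (1.39 and 0.966 CPM). Crhbp stood at 19.3 and 15.4 CPM in nuclei with 1 GABA-gene UMI. With 2 it stood at 17.0 and 35.3 CPM, and with 3 or more at 19.8 and 17.1. Crhbp passed the filter on low counts only through the GABA-gene nuclei, was too rare to be tested with 1 matched nucleus per member or with at least 3 GABA-gene UMIs, and was not called by DESeq2 (adjusted p = 0.12), so its counts are given here as a description. Most GABA-gene nuclei held no Crhbp UMI. Of 16 peptide and interneuron genes, the other gene that passed the filter, Calb2 (calretinin), was not called (-0.32).

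Of 16 transcription factors of midbrain and hindbrain GABA neurons, only the GATA cofactor Zfpm2 had enough UMIs for the test, at 141 and 124 CPM against 62.3 and 43.8 (1.26 ± 0.23, edgeR adjusted p = 1.2e-06, DESeq2 adjusted p = 0.20). With at least 3 GABA-gene UMIs in a member the call was lost (0.74, edgeR adjusted p = 0.47): those nuclei stood at 72.5 and 85.5 CPM, nuclei with 2 UMIs at 177 and 155, with 1 at 137 and 36.9, and with none at 64.2 and 54.5. Zfpm2 thus showed no steady order over these classes. Gata3, a selector gene of these neurons, had 8 and 3 UMIs against 1 and 0 (ratio 32.9, exact 95% counting interval 4.78 to 1420), and Tal1 had 2 and 1 against 0 and 0. The Gata3 ratio rested on 1 matched UMI. The summed level of the list was 224 and 174 CPM in GABA-gene nuclei against 76.6 and 54.1. Most of each sum was Zfpm2 (141 and 124 against 62.3 and 43.8). None of 14 forebrain and hypothalamic factors could be tested. Meis2, a homeobox factor, had 30 UMIs in 9 male and 3 in 1 female GABA-gene nucleus against 5 and 0, while Dlx1, Dlx2, Dlx5 and Lhx6, which define forebrain interneurons, were at 0.

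The nuclei were also set out by which GABA gene was seen, as a description, since the rule used these genes. Those with a UMI of Gad1 or Slc32a1 (33 male, median depth 4184 UMIs, and 8 female, median depth 2288.5) were set beside those with Gad2 alone (79, median 2747, and 54, median 3007.5). Zfpm2 stood at 255 CPM with Gad1 or Slc32a1 (exact 95% Poisson interval 183 to 345) and 77.2 with Gad2 alone (48.4 to 117) in the male library, and at 161 (64.8 to 332) and 116 (75.2 to 172) in the female, where the intervals overlapped. Gata3 had 6 and 3 of its UMIs in the nuclei with Gad1 or Slc32a1 and 2 and 0 in the more numerous nuclei with Gad2 alone.

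Other genes stood lower in the nuclei with Gad1 or Slc32a1. Ebf3 was at 99.4 against 365 CPM in the male and 115 against 470 in the female library, Lmx1a at 43.5 against 165 and 23.0 against 167, and Pde11a at 49.7 against 558 and 322 against 577. Megf11 was at 137 against 512 and 253 against 493. Slc6a3 differed less, at 236 against 270 and 230 against 367. With Gad1 or Slc32a1, Ebf3 and Lmx1a lay below the matched nuclei in both libraries, and Pde11a did so in the male library. The Lmx1a values and the female Ebf3 value rested on few UMIs. Whether the higher level of Ebf3 and Lmx1a in GABA-gene nuclei came from the nuclei with Gad2 alone was not tested. Only 8 female nuclei stood behind the female values, and the classes were chosen after values of these nuclei had been seen, so no test was made.

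Among 17 GABA receptor subunits, 12 were tested, 4 were higher and 1 was lower (median 0.39), beside 4.02% and 3.30% of all genes tested. Gabrb2 stood at 269 and 240 CPM against 111 and 99.3 (1.25 ± 0.17, edgeR adjusted p = 1.9e-11) and Gabra3 at 139 and 104 against 60.8 and 55.4 (1.07, edgeR adjusted p = 7.9e-05). Gabrg1, counted among the 4, had 13 and 6 UMIs against 5 and 2, passed the filter on low counts only through the GABA-gene nuclei and was too rare to be tested with 1 matched nucleus per member. Gabra4 was lower, at 35.9 and 38.7 against 84.1 and 83.8 (-1.20, edgeR adjusted p = 9.9e-04). These are subunits of the ionotropic GABA receptor, and of those called, DESeq2 called Gabrb2 alone.

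Of 9 glutamatergic genes listed, among them the rule gene Slc17a6, which was left out of the tests, 3 were tested. Of these, 1 was higher, beside 4.02% of all genes tested. It was the NMDA receptor subunit Grin3a, at 161 and 170 CPM against 75.1 and 87.7 (1.02 ± 0.20, edgeR adjusted p = 1.6e-05). DESeq2 did not make this call, and it was lost with at least 3 GABA-gene UMIs and with UMIs of at least 2 GABA genes. Slc17a5, a lysosomal sialic acid carrier, was not called (-0.30). The 10 genes of acetylcholine, serotonin, glycine, noradrenaline and histamine neurons summed to 1 UMI in each library's GABA-gene nuclei, against 7 and 2 in matched nuclei.

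Nuclei with Slc17a6 (114 male, median depth 3324 UMIs, and 125 female, median depth 3300, each with fewer than 2 GABA-gene UMIs) were the nearest class with another transmitter gene. Against them, 146 of 6447 genes tested were higher (2.26%) and 99 lower (1.54%) in GABA-gene nuclei. This comparison shares its GABA-gene nuclei with the one above, and the depths were not matched. Megf11 stood at 377 and 453 CPM against 32.4 and 32.1 (3.69 ± 0.22, edgeR adjusted p = 1.3e-55), and Pde11a at 374 and 534 against 62.4 and 48.2 (3.07). Zeb2 (2.63), Myo16 (2.26), Ptprk (1.91) and Ttn were the other named higher genes. Ttn had 29 and 26 UMIs against 0 and 4, most of them in 1 GABA-gene nucleus of each library. It passed the filter on low counts only through the GABA-gene nuclei, so its counts are given as a description. The lower genes named by the rule were Col23a1, a membrane collagen, at 6.73 and 23.2 against 118 and 40.2 (-2.69), the lipid phosphatase family gene Plpp4, at 67.3 and 34.8 against 231 and 101 (-1.70), Plekhg1, Atg5, Agfg2 and Mid1. Plekhg1, Atg5 and Agfg2 passed the filter on low counts only through the Slc17a6 nuclei, so their calls are a description.

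Th, Slc6a3 and Ddc stood, in Slc17a6 nuclei, between their levels in the matched nuclei and in the GABA-gene nuclei. Th was at 275 and 347 CPM there, and GABA-gene nuclei were lower by a log2 fold change of -0.55 (edgeR adjusted p = 0.038), with Slc6a3 at 368 and 588 (-0.64, edgeR adjusted p = 0.0013) and Ddc at 821 and 836 (-0.54, edgeR adjusted p = 0.0013). In the dopamine synthesis list 5 of 8 tested genes were lower and 0 higher, and in the receptor list 2 were lower and 1 higher of 12. In the transcription factor list Pbx3 (0.56) and Ebf3 (0.52) were higher and Satb1 (-0.68) lower of 10 tested. Over all genes tested against Slc17a6 nuclei, 2.26% were higher and 1.54% lower. Sox6 stood at 241 and 346 in the Slc17a6 nuclei (-0.84, edgeR adjusted p = 3.0e-04). Gabrb2 (0.77), Gabra3 (0.80) and Zfpm2 (0.79) were again higher. DESeq2 called none of the list genes that edgeR called in this comparison, although it called the 6 named higher genes. Among these 6, the call of Ttn is a description only. Of the 6 named lower genes DESeq2 called 0, and edgeR without the block 3.

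Markers of other cell types were no higher in sum in GABA-gene nuclei, except those of blood vessels in the male library. The 8 oligodendrocyte genes summed to 168 and 116 CPM against 172 and 129 in matched nuclei, and Mbp, a myelin protein gene, was not called (0.08). Mbp had a UMI, however, in 14.3% of male (exact 95% interval 8.39 to 22.2) and 12.9% of female GABA-gene nuclei (5.74 to 23.9), against 6.85% (4.39 to 10.1) and 7.53% (4.18 to 12.3) of matched nuclei. When GABA-gene nuclei with a UMI of the oligodendrocyte genes were left out, 267 genes were higher and 221 lower. Genes of oligodendrocyte precursors had no UMI in GABA-gene nuclei and 9 and 3 in matched nuclei. Astrocyte genes summed to 139 and 112 against 181 and 156, mostly Slc1a2 (-0.61, edgeR adjusted p = 0.032, not called by DESeq2, without the block or with at least 3 GABA-gene UMIs), and Aqp4 and Gfap were at 0. Microglial genes summed to 62.8 and 65.8 against 71.4 and 70.9, and C1qa and Tmem119 were at 0. Vascular genes summed to 38.1 and 23.2 against 20.3 and 23.2, with Tek the most abundant and Cldn5 at 0. Of 9 pan-neuronal genes 8 were tested, 2 were lower and 1 was higher, beside 3.30% and 4.02% of all genes tested. The lower ones were the synaptic genes Snap25 (-0.46) and Syt1 (-0.39), calls that neither DESeq2 nor edgeR without the block made. The neurofilament gene Nefm, called higher, had 16 and 6 UMIs against 8 and 1, passed the filter on low counts only through the GABA-gene nuclei and was too rare to be tested with 1 matched nucleus per member. Mitochondrial transcripts made up a mean of 0.0498% and 0.0245% of UMIs against 0.0387% and 0.0124%. The part of the other cell types' transcripts and of mitochondrial transcripts in the differences above was not tested.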

How the data were processed

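Per the labels and the study's methods, the authors sorted GFP+ singlet nuclei, prepared 10x 3' v3.1 libraries, counted reads with introns included in Cell Ranger 6.0.0 against mm10, and deposited raw UMI counts per gene and nucleus. Seurat 4.0.2 is named in the submitters' processing notes. The files held 6594 male and 5557 female nuclei and 32285 genes, and the study's minimum of 500 features left 6556 and 5509. In the values given here no doublet caller was run and no doublets were removed beyond the sort gate. The study itself set aside a cluster that it judged likely to be doublets of dopamine neurons with oligodendrocytes. The libraries shared 6 barcodes, none of them from GABA-gene nuclei. The members and gene lists were chosen with earlier results of these data known.

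Counts were summed per library and class and tested with edgeR 4.0.16 (TMM, filterByExpr, glmQLFit and glmQLFTest, library as a block, adjusted p threshold 0.05, R 4.3.3). The 4 sums and 3 coefficients left 1 residual degree of freedom, and the prior degrees of freedom were infinite. The 4 rule genes were left out of the tests. Some genes of the lists are counted but not reported here by name. Both sums of a library come from the same pooled mice, which is where the pairing comes from. With the library as a block and infinite prior degrees of freedom, the spread behind the p-values came from the trend over genes. It reflects how the difference between classes varied across only 2 libraries, which includes sex. Named genes were those with the 12 largest fold changes each way (6 against Slc17a6 nuclei) among genes with adjusted p under 0.05, at least 50 UMIs and the same direction in each library. Clone-like symbols were left out. Python 3.11.15, scipy 1.17.1 and DESeq2 1.42.0 were also used. Coordinates are from GENCODE on GRCm38 (mm10), to which 32235 gene IDs matched.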

Additional observations from a re-analysis of the deposited data

How the results depend on the processing

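The limits are few libraries and few members: fold changes of low genes rest on few UMIs, and a transcript without a UMI may be present below detection. Against matched nuclei, no replicate block left 164 higher and 74 lower genes, DESeq2 83 and 38, members with at least 3 UMIs 164 and 144, and members with UMIs of at least 2 genes 77 and 53. Against Slc17a6 nuclei, no replicate block left 42 and 13 and DESeq2 22 and 2. Without the library as a block, 12 of 12 named higher genes and 2 of 12 named lower genes were still called. Ttn, Itga11 and Slc7a14 among the higher genes and both of these lower genes passed the filter through 1 class only. Their calls are thus a description. With UMIs of at least 2 genes, 6 of the 12 higher genes could be tested and 4 were called (Megf11, Htr2c, Myo16 and Ebf2), and 0 of the lower genes could be tested. With at least 3 UMIs, 10 higher genes and 1 lower gene could be tested and were called. Scaling by library size alone gave 324 and 241, no filter on low counts 243 and 252, 1 matched nucleus per member 228 and 192, unmatched nuclei 321 and 360, matched nuclei without a GABA-gene UMI 325 and 275, a minimum of 1000 features 289 and 244, leaving out nuclei above the 95th percentile of depth 278 and 242, and members without oligodendrocyte UMIs, chosen after seeing the data, 267 and 221. The share of GABA-gene nuclei was 4.19% and 2.89% with at least 1 UMI, 0.564% and 0.436% with at least 3, and 0.355% and 0.280% after thinning every nucleus to 1000 UMIs.

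Thinned to 1000 UMIs, Th had a UMI in 13.4% and 16.7% of GABA-gene nuclei against 32.7% and 38.9% of matched nuclei, Slc6a3 in 17.9% and 23.3% against 39.0% and 47.8%, Ddc in 31.3% and 46.7% against 64.3% and 53.9%, and Slc18a2 in 25% and 46.7% against 30.4% and 62.8%. With 1 matched nucleus per member the female Ddc share in matched nuclei was 93.5%. The female Slc18a2 share was then 82.3% in matched nuclei, equal to the 82.3% of GABA-gene nuclei. With each library left out in turn, the log2 fold change of Maoa ranged from -0.89 to 0.053. Other log2 fold changes that turned sign were those of En1 (0.18) with at least 3 UMIs, and Pbx3 (-0.19), Ebf3 (-0.91), Erbb4 (-0.18) and Tacr3 (0.23) with UMIs of at least 2 genes. The cause was not tested. With 1 library left out no test remains.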

Other observations

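Taken from the side of Megf11, at least 2 Megf11 UMIs were counted in 128 male and 85 female nuclei. Of these, 28.9% and 32.9% were GABA-gene nuclei, and 59.4% and 61.2% held at least 1 UMI of Gad1, Gad2 or Slc32a1.

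The share of GABA-gene nuclei by quartile of depth, from the shallowest to the deepest, was 1.47%, 1.46%, 1.47% and 2.44% in the male and 1.16%, 1.24%, 0.726% and 1.38% in the female library.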
